A study of Mus musculus with 15 samples.

Results

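Complex I of the respiratory chain is encoded in mouse largely by nuclear genes whose symbols start with Nduf, and these genes were followed here through inhibition of oxidative phosphorylation or of glycolysis in embryonic stem cells (ESCs). All rows of the expression table that were annotated as protein coding and had such a symbol were taken, which gave 46 of the 32152 genes of the table. Of these, 38 were called subunits and 8 were assembly factors, whose symbols start with Ndufaf. By the roles of their proteins, the 38 subunit genes were 7 of the catalytic core, 9 accessory subunits of the peripheral arm, 19 accessory subunits of the membrane arm, the acyl carrier protein Ndufab1, and the pair Ndufa4 and Ndufa4l2, which carry the family name but are now placed with complex IV. Another 1 symbol of this kind, Ndufab1-ps, belongs to a pseudogene and was left out.

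Complex I, or NADH:ubiquinone oxidoreductase, passes electrons from NADH through a flavin and a chain of iron-sulfur clusters in its peripheral arm to ubiquinone, and pumps protons through its membrane arm. The core subunits carry out this chemistry, the accessory subunits surround and stabilize them, and assembly factors help to build the complex and then leave it. Mouse ESCs grown with serum and leukemia inhibitory factor use both glycolysis and respiration, and complex I also reoxidizes NADH, which supports biosynthesis.

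The RNA of C57BL/6 ESCs in serum medium with leukemia inhibitory factor was sequenced in 15 samples, 3 in each of 5 groups. The groups were cells kept for 48 h in 1 nM oligomycin (low inhibition of oxidative phosphorylation in the labels), 10 nM oligomycin (high inhibition), 5 mM 2-deoxy-D-glucose (2-DG, low inhibition of glycolysis), 10 mM 2-DG (high inhibition), and mock-treated cells as the control, for which no time is stated. Oligomycin blocks the proton channel of the mitochondrial ATP synthase, and 2-DG is a glucose analog that competes with glucose in the first steps of glycolysis. The labels name no feeder cells, give no line or clone, and leave it unstated whether replicates were grown apart, so p-values here measure the spread between these samples, which may be technical.

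Expression is given as FPKM, fragments per kilobase of exon scaled to the mapped reads, as deposited. A change is a log2 change of FPKM + 1 with its standard error (SE), and "higher", "lower", "rose" and "fell" are used of genes with an adjusted p under 0.05 in limma's moderated test, adjusted by Benjamini-Hochberg over all 13284 genes tested. Depth worked out from the steps of the FPKM values was 17.4 to 19.2 M reads (M, mega) per sample. The stem cell markers Pou5f1, Sox2, Nanog, Zfp42, Esrrb, Klf2, Tdgf1 and Dppa5a were present in every group, but their summed level was 945 to 1047 FPKM with 1 nM and 365 to 489 FPKM with 10 nM oligomycin, 1454 to 1529 FPKM with 5 mM and 1326 to 1364 FPKM with 10 mM 2-DG, and 1665 to 1815 FPKM in the controls. A list of 10 fibroblast markers, of which none was under 1 FPKM in all samples, summed to 2170 to 2266 FPKM with 1 nM and 2969 to 3307 FPKM with 10 nM oligomycin, 981 to 1108 FPKM with 5 mM and 1180 to 1290 FPKM with 10 mM 2-DG, against 1018 to 1063 FPKM in the controls. A list of 9 macrophage markers, of which none was at 0 and 1 was under 1 FPKM in all samples, summed to 138 to 182 FPKM with 1 nM and 164 to 176 FPKM with 10 nM oligomycin, 61.8 to 63.6 FPKM with 5 mM and 55.0 to 56.2 FPKM with 10 mM 2-DG, and 137 to 153 FPKM in the controls. All 8 stem cell markers were lower at each oligomycin dose. Of the 10 fibroblast markers 9 were higher at each dose (Col1a1, Col1a2, Col3a1, Dcn, Fbln2, Lox, Pdgfrb, Postn and Thy1). These counts were the same without 10 nM replicate 1. Of the 8 tested macrophage markers, 6 were lower with 5 mM 2-DG (C1qa, C1qb, Csf1r, Lyz2, Mrc1 and Pf4). At 10 mM 5 were lower, all of these but Csf1r. Among all genes tested, 33.2% were lower and 29.8% higher with 1 nM oligomycin, and 41.7% and 34% with 10 nM. With 5 mM 2-DG these shares were 20.3% and 15%, and with 10 mM 26.8% and 21.4%. Other calls were mixed. With 5 mM 2-DG the stem cell markers Esrrb and Klf2 rose and Tdgf1 fell. With 10 mM Klf2 rose and Dppa5a, Nanog and Tdgf1 fell. Of the fibroblast markers 1 rose (Lox) and 4 fell (Col1a2, Col3a1, Lum and Postn) with 5 mM. At 10 mM 3 rose (Dcn, Lox and Pdgfrb) and 3 fell (Col3a1, Lum and Postn). Of the macrophage markers 2 rose (Adgre1 and Cd68) and 2 fell (C1qa and C1qb) with 1 nM oligomycin. With 10 nM 4 rose (Cd68, Csf1r, Lyz2 and Pf4) and 2 fell (C1qa and C1qb). Without 10 nM replicate 1 these counts were 2 (Cd68 and Pf4) and 2. The part of these lists in the results on complex I genes was not tested. In RNA from whole cultures fewer cells of a type and less RNA per cell cannot be told apart.

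Replicate 1 of 10 nM oligomycin stood apart from the other libraries of its group. In it, 44 of the 45 tested Nduf genes lay below their group mean, by a median of -0.30 on the log2 scale. In replicates 2 and 3, 4 and 2 of the 45 lay below it. Deviations from a group mean cancel out within the group, so opposite signs in replicates 2 and 3 are largely fixed by replicate 1. Other groups had such libraries with smaller deviations: 39 of the 45 genes lay below the mean in control replicate 1 (median -0.10). In 1 nM replicate 2, 36 did (median -0.04). Across 13275 genes, which are not independent replicates, its deviations from the group mean had a Spearman correlation of 0.52 with exon length, against -0.46 and -0.38 in replicates 2 and 3. Control replicates had 0.36, 0.05 and -0.35. Nduf genes are short, with a median exon length of 1569 bases against 4016 bases over all genes tested. Counts that involve 10 nM oligomycin are given with and without this library, as are the changes of the Nduf genes called there and described singly.

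**Figure D1:**
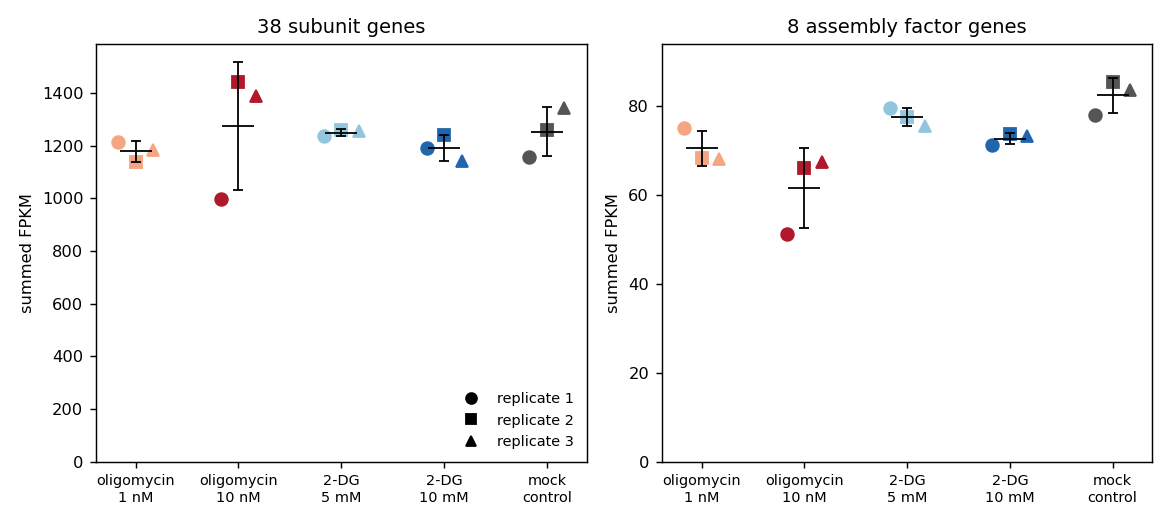
Summed FPKM of the 38 subunit genes (left) and the 8 assembly factor genes (right) in each of the 15 samples, with the mean and SD of the 3 samples of a group as a bar and whiskers. The subunit sums of 10 nM oligomycin are spread from 997 to 1443 FPKM, with replicate 1 the lowest of all samples. The assembly factor sums of that group, 51.2 to 67.4 FPKM, all lie below the 78.1 to 85.5 FPKM of the controls. So do those with 1 nM oligomycin (68.1 to 75.1 FPKM) and 10 mM 2-DG (71.2 to 73.7 FPKM), while those with 5 mM 2-DG (75.5 to 79.6 FPKM) overlap the controls.

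Subunit transcripts stood above most assembly factor transcripts in FPKM, which is a level per length. In the controls the subunit genes had a median of 32.1 FPKM, with group means from 0.199 FPKM for Ndufb2 to 90.6 FPKM for Ndufb9, and the assembly factors a median of 10.3 FPKM, from 6.09 FPKM for Ndufaf3 to 16.3 FPKM for Ndufaf1. By class the control medians were 38.4 FPKM for the core, 27.6 FPKM for the peripheral arm and 32.9 FPKM for the membrane arm. When all 46 genes were ordered by control level, 36 of the 45 neighbouring pairs had overlapping control ranges, so the fine order of the genes is not resolved by 3 samples. Ndufb2, a small membrane arm subunit, was at 0.0679 to 0.39 FPKM over the 15 samples, lay under the filter of 1 FPKM in 3 samples and was the only one of the 46 genes that was not tested. The annotated exons of Ndufb2 cover 5628 bases, of which 7.94% are shared with Braf, Gm16272 and Gm42420. The cause of its low value was not tested. Ndufab1, the mitochondrial acyl carrier protein, was at 1.53 to 2.33 FPKM, while its processed pseudogene Ndufab1-ps was at 8.52 to 17.9 FPKM. The transcripts of the gene and the pseudogene are nearly identical, so how their reads were divided is uncertain, and the same holds for 7 other members with a near-identical copy elsewhere in the annotation (Ndufa12, Ndufb3, Ndufb4, Ndufb11, Ndufs3, Ndufs5 and Ndufs6).

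The promoters of 40 of the 46 genes were found in the RefSeq promoter table (GRCm38.p6), as 250 bases before and 50 after the transcript start. They were searched on both strands for 5 motifs of factors known to act on respiratory or stress genes. The NRF1 core GCATGCGC stood in 5 of the 40 promoters (12.5%), against 3.05% of all 27025 promoters of the table. The YY1 motif AAGATGGCG stood in 6 (15%), against 1.64% of all. The ETS motif CCGGAAG, whose last letters can be the first of the YY1 motif, stood in 6 (15%), against 9.93% of all, the ERR site AAGGTCA in 3 (7.5%) against 5.38%, and the ATF4 element TGATGNAA in 0 against 4.51%. A match describes these letters only and is no evidence of binding. With 10 nM oligomycin over all samples, members with the NRF1 core moved both ways, while the called members with the YY1 or ETS motif were lower. Of members with the NRF1 core, Ndufa6 and Ndufa8 were higher, Ndufaf4 was lower, and Ndufa11 and Ndufaf5 were not called. Of those with the YY1 motif, Ndufs6 and Ndufaf8 were lower, and Ndufa9, Ndufc1, Ndufs4 and Ndufs7 were not called. Of those with the ETS motif, Ndufaf1 and Ndufaf8 were lower, and Ndufb6, Ndufb7, Ndufs3 and Ndufs8 were not called. Ndufb4 and Ndufs5, with the ERR site, were not called, and Ndufb2, also with it, was not tested. Without 10 nM replicate 1, Ndufc1, Ndufs7, Ndufb6 and Ndufb7 rose and Ndufaf8 was not called. Ndufa13, which was higher, and Ndufaf2, which was lower, had no match. Below are the promoters of 3 members picked from those with a match: Ndufs6 and Ndufaf4, which were lower with oligomycin, and Ndufa6, which was higher with 10 nM oligomycin. Capitals mark the matches. In Ndufs6 (chr13:73328433-73328732, minus strand, GRCm38.p6) the YY1 motif begins 33 bases after the start. In Ndufaf4 (chr4:24897833-24898132, plus strand) 3 NRF1 core matches form 2 stretches, the first because the core read on both strands overlaps itself. In Ndufa6 (chr15:82354242-82354541, minus strand) there is 1 NRF1 core.
Ndufs6: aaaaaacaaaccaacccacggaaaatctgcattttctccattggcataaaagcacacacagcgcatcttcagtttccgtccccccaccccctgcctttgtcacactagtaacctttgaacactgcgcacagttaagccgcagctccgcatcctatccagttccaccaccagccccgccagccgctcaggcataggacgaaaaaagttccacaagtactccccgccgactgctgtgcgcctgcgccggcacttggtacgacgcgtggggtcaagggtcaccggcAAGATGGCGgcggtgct
Ndufaf4: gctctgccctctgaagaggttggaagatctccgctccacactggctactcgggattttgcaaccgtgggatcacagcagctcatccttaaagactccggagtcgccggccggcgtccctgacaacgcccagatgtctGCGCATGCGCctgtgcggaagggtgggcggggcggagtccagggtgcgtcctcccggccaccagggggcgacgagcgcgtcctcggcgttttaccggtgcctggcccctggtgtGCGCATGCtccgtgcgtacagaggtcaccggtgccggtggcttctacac
Ndufa6: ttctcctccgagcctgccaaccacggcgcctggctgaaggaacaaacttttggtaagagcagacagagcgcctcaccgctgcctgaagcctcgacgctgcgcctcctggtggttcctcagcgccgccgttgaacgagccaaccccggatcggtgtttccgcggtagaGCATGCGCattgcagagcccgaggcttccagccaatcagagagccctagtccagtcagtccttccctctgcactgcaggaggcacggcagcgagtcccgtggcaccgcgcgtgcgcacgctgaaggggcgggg

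With 1 nM oligomycin the Nduf genes that passed the test were all lower. Of the 45 tested, 7 fell and 0 rose, while 33.2% of all genes tested were lower and 29.8% higher in this comparison. The median change was -0.10 over the 45 genes and -0.03 over all genes. The 7 were 4 of 37 subunits (the core subunit Ndufs1, the peripheral arm subunit Ndufs6, the membrane arm subunit Ndufb3, and Ndufa4) and 3 of 8 assembly factors (Ndufaf2, Ndufaf4 and Ndufaf8). By limma's unadjusted p, 9 of the 45 were under 0.05, counting both directions. Ndufb3 changed by -0.44 ± 0.13 (adjusted p = 0.0089) and Ndufaf8 by -0.31 ± 0.11 (adjusted p = 0.027). The call of Ndufaf8 was lost without control replicate 2 or 3, without 1 nM replicate 2 or 3, without a filter and with the exon length correction, with adjusted p up to 0.12. Other core subunits did not pass, with -0.12 ± 0.08 for Ndufv1, -0.08 ± 0.11 for Ndufv2, -0.10 ± 0.10 for Ndufs3, -0.11 ± 0.14 for Ndufs7 and -0.05 ± 0.11 for Ndufs8. The other assembly factors had -0.25 ± 0.11 (Ndufaf1, adjusted p = 0.07), -0.12 ± 0.11 (Ndufaf3), 0.07 ± 0.09 (Ndufaf5), -0.03 ± 0.11 (Ndufaf6) and -0.07 ± 0.07 (Ndufaf7).

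Ndufs6, a zinc-binding subunit of the peripheral arm (ENSMUSG00000021606, chromosome 13, 73319838 to 73328542, minus strand, GRCm38 here and for the genes that follow), had 30.5, 27.3 and 27.0 FPKM with 1 nM oligomycin and 19.1, 28.7 and 24.4 FPKM with 10 nM, against 35.0, 39.4 and 44.8 FPKM in the controls. All 6 oligomycin samples lay below all 3 controls, and the 2 oligomycin groups overlapped. The change was -0.47 ± 0.12 with 1 nM (adjusted p = 0.0039, limma) and -0.71 ± 0.12 with 10 nM (adjusted p = 9.9e-05), or -0.56 with 10 nM without replicate 1. With 5 mM 2-DG it had 38.1, 41.6 and 37.8 FPKM and with 10 mM 34.5, 38.8 and 33.0 FPKM, both overlapping the controls. A near-identical copy, Ndufs6b, is annotated elsewhere, so these reads may in part be its own.

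Ndufaf4, an assembly factor that acts with Ndufaf3 early in assembly (ENSMUSG00000028261, chromosome 4, 24898083 to 24905001, plus strand), had 6.80, 6.43 and 6.20 FPKM with 1 nM oligomycin and 4.92, 5.54 and 5.70 FPKM with 10 nM, against 9.06, 9.86 and 9.07 FPKM in the controls. The 3 groups did not overlap, and the level was lower at the higher dose in every sample. The changes were -0.47 ± 0.08 (adjusted p = 0.00028, limma) and -0.69 ± 0.08 (adjusted p = 3.6e-06), or -0.64 with 10 nM without replicate 1. Group means with 2-DG were 7.95 FPKM at 5 mM and 8.33 FPKM at 10 mM, with changes of -0.21 ± 0.08 and -0.15 ± 0.08 that did not pass the test.

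Ndufaf2, a chaperone that stands in for Ndufa12 until the last steps of assembly (ENSMUSG00000068184, chromosome 13, 108002715 to 108158623, minus strand), had 4.10, 3.81 and 3.10 FPKM with 1 nM oligomycin and 2.46, 4.46 and 3.80 FPKM with 10 nM, against 5.88, 6.33 and 6.16 FPKM in the controls. Every oligomycin sample was below every control. The changes were -0.61 ± 0.13 (adjusted p = 0.001, limma) and -0.66 ± 0.13 (adjusted p = 0.00036), or -0.48 for 10 nM without replicate 1. Of its exon bases, 65.6% also lie in exons of B230220B15Rik on the other strand, and whether reads were counted by strand is not given in the sources used here, so the 2 genes cannot be told apart. Ndufs1, the largest core subunit with iron-sulfur clusters on the path of the electrons, had 12.9, 11.1 and 11.4 FPKM with 1 nM and 9.93, 9.82 and 10.1 FPKM with 10 nM, against 15.1, 14.3 and 13.7 FPKM in the controls. Its 3 groups did not overlap, with changes of -0.26 ± 0.06 (adjusted p = 0.0018) and -0.49 ± 0.06 (adjusted p = 4.9e-06), the second also -0.49 without replicate 1.

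**Figure D2:**
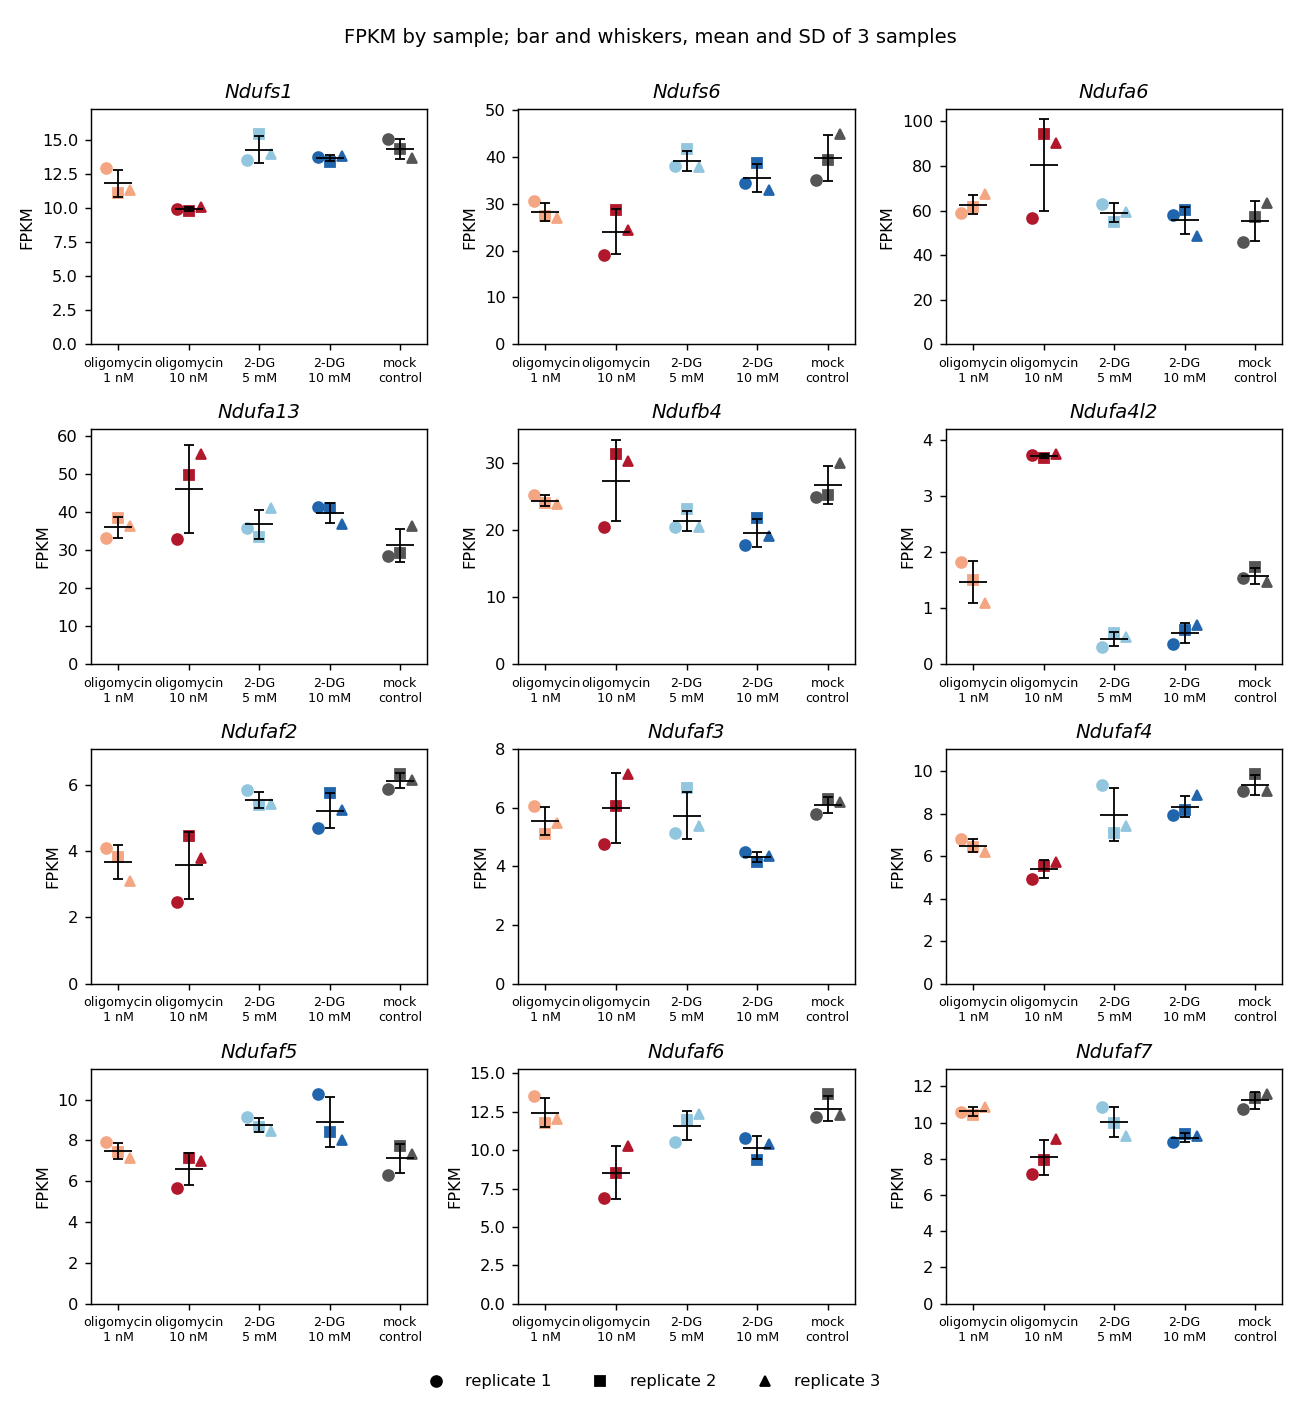
FPKM of 12 Nduf genes in each sample of the 5 groups, with the 3 replicates as separate symbols and the mean and SD as a bar and whiskers; the vertical axes start at 0. Ndufs1, Ndufs6, Ndufaf2 and Ndufaf4 lie below the controls in all 6 oligomycin samples, while Ndufa4l2 lies above the controls with 10 nM oligomycin and below them in all 6 samples with 2-DG.

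With 10 nM oligomycin 6 of the 8 assembly factors were lower, and the subunits moved both ways. Over all 3 samples, 12 of the 45 Nduf genes fell and 5 rose, against 41.7% lower and 34% higher among all genes tested. Without replicate 1, 9 fell and 16 rose, against 41% lower and 34.9% higher among all genes. With changes corrected for exon length across all genes, 11 fell and 12 rose, against 39% lower and 38.4% higher. The 9 genes that fell without replicate 1 were all among the 12, and the 5 that rose were all among the 16, so that leaving the library out added 11 rises and removed 3 falls (Ndufa4, Ndufaf8 and Ndufv2). The count of rises was 2 without control replicate 1, without 10 nM replicate 2 or without 10 nM replicate 3, and 3 without control replicate 2. The number of subunit genes that rose with 10 nM oligomycin thus rests on replicate 1, on the other libraries named and on the handling of gene length.

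**Figure D3:**
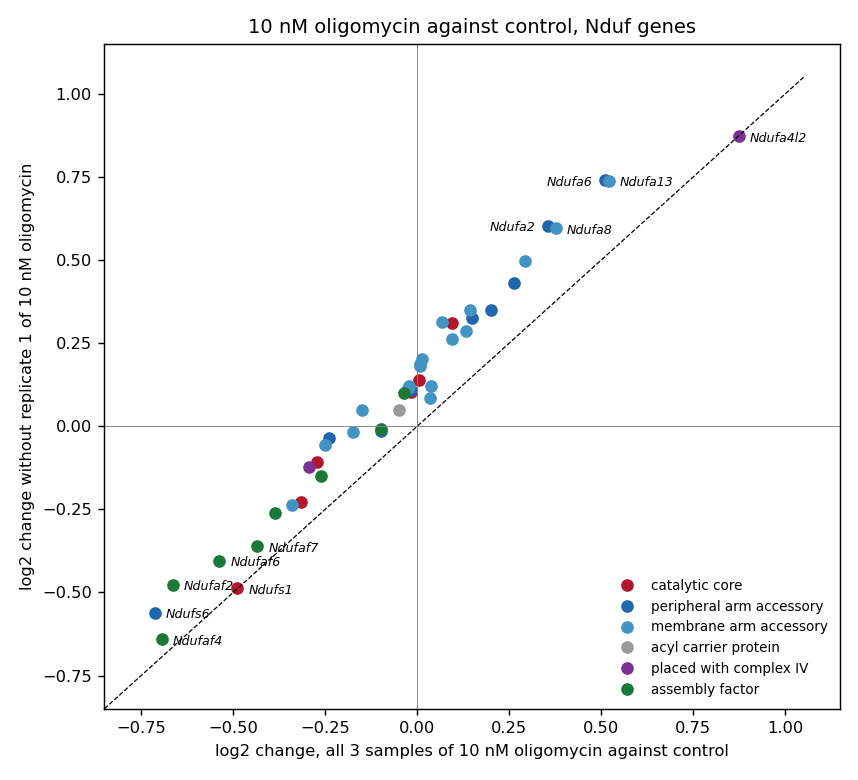
Log2 change of 44 of the 45 tested Nduf genes with 10 nM oligomycin against control, from all 3 samples (horizontal axis) and without replicate 1 (vertical axis), coloured by class; the dashed line marks equal values. Nearly all points lie above the line, most of all the accessory subunits with rises such as Ndufa6 and Ndufa13, while Ndufa4l2 (0.87 on both axes) and Ndufs1 (-0.49 on both axes) lie on it.

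Of the 8 assembly factors, 6 fell with 10 nM oligomycin and 5 fell without replicate 1, with a median change of -0.41 and -0.31. Among all genes tested 41.7% and 41% were lower. Beside Ndufaf2 and Ndufaf4, the falls were in Ndufaf1, which acts on the membrane arm, in Ndufaf6 and in Ndufaf7, a methyltransferase that modifies a core subunit. Ndufaf6 had 13.5, 11.8 and 12.0 FPKM with 1 nM and 6.85, 8.49 and 10.3 FPKM with 10 nM oligomycin, against 12.2, 13.7 and 12.3 FPKM in the controls. All 10 nM samples were below the 1 nM and control samples, and the changes were -0.54 ± 0.11 against control (adjusted p = 0.00042, limma) and -0.51 ± 0.11 against 1 nM (adjusted p = 0.0017), or -0.40 and -0.38 without replicate 1. Ndufaf7 had 10.6, 10.4 and 10.9 FPKM with 1 nM and 7.18, 7.96 and 9.11 FPKM with 10 nM, against 10.7, 11.4 and 11.6 FPKM in the controls. Its 10 nM samples were again below all the others of these groups, with changes of -0.43 ± 0.07 (adjusted p = 7.1e-05) and -0.36 ± 0.07 (adjusted p = 0.00097), or -0.36 and -0.29 without replicate 1. Ndufaf1 changed by -0.39 ± 0.11 (adjusted p = 0.0062), or -0.26 without replicate 1. Ndufaf8 changed by -0.26 ± 0.11 (adjusted p = 0.047), or -0.15 without replicate 1 (adjusted p = 0.22), and its call was lost in 10 of 15 alternatives, among them those without control replicate 2 or 3 and without 10 nM replicate 3. Ndufaf3 and Ndufaf5 had changes of -0.03 ± 0.11 and -0.10 ± 0.09 and did not pass the test.

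Of the 7 core subunits, 3 were lower with 10 nM oligomycin and 2 without replicate 1. These shares were near and below the 41.7% and 41% lower among all genes. Beside Ndufs1, the flavin-binding subunit Ndufv1 changed by -0.32 ± 0.08 (adjusted p = 0.0023, limma), or -0.23 without replicate 1, with 30.8 FPKM against 38.4 FPKM in the controls. Its partner Ndufv2 changed by -0.27 ± 0.11 (adjusted p = 0.034), or -0.11 without replicate 1 (adjusted p = 0.16), with 42.8 FPKM against 51.3 FPKM in the controls. Its call was also lost without control replicate 2 or 3. Others did not pass over all samples: Ndufs3 changed by -0.02 ± 0.10, Ndufs7 by 0.10 ± 0.14 and Ndufs8 by 0.00 ± 0.11. Ndufs7 passed as higher without replicate 1, with a change of 0.31 (adjusted p = 0.0083).

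Of the 5 rises with 10 nM oligomycin, 4 were in accessory subunits. In the peripheral arm 2 of 9 rose and 1, Ndufs6, fell, and in the membrane arm 2 of 18 rose and 1, Ndufb5, fell. Without replicate 1 the peripheral arm had 5 rises and 1 fall and the membrane arm 9 rises and 1 fall. Among all genes tested 34% were higher and 41.7% lower over all samples, and 34.9% and 41% without replicate 1. Ndufa6, a subunit of the LYR family in the peripheral arm (ENSMUSG00000022450, chromosome 15, 82350139 to 82354291, minus strand), had 56.8, 94.2 and 90.2 FPKM with 10 nM oligomycin, against 45.7, 56.9 and 63.3 FPKM in the controls. Replicates 2 and 3 were above all controls, and replicate 1 lay within their range. The change was 0.51 ± 0.16 (adjusted p = 0.011, limma), and 0.74 without replicate 1 (adjusted p = 7.3e-05). It did not pass without control replicate 1 (0.38, adjusted p = 0.06), without 10 nM replicate 2 (0.38, adjusted p = 0.058), without 10 nM replicate 3 (0.41, adjusted p = 0.053) or when these 2 groups alone were fitted (adjusted p = 0.056). Ndufa13, also known as GRIM-19, a membrane arm subunit (ENSMUSG00000036199, chromosome 8, 69894180 to 69902558, minus strand), had 33.0, 49.9 and 55.3 FPKM, against 28.4, 29.2 and 36.3 FPKM in the controls. Here too only replicate 1 overlapped the controls, with a change of 0.52 ± 0.15 (adjusted p = 0.0064) and 0.74 without replicate 1. Of its exon bases, 30.0% also lie in exons of Tssk6, so reads of the 2 genes may be shared. Ndufa8 changed by 0.38 ± 0.14 (adjusted p = 0.022) and by 0.60 without replicate 1, and Ndufa12 by 0.26 ± 0.11 (adjusted p = 0.043) and by 0.43 without replicate 1. The call of Ndufa8 was lost in 6 of 15 alternatives, with a lowest value of 0.25 (adjusted p = 0.11) without 10 nM replicate 2, and likewise without 10 nM replicate 3 or control replicate 1 or 2. That of Ndufa12 was lost in 7 of 15, with a lowest value of 0.14 (adjusted p = 0.22) without 10 nM replicate 2, and likewise without 10 nM replicate 3 or any 1 of the controls. Ndufa2, a peripheral arm subunit with a thioredoxin-like fold, passed without replicate 1 only, at 0.60 (adjusted p = 4.3e-05) against 0.36 ± 0.16 (adjusted p = 0.054) over all samples.

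Of the pair placed with complex IV, Ndufa4l2 rose with 10 nM oligomycin in all 14 alternatives run for it, while Ndufa4 fell over all samples but did not pass without replicate 1. Ndufa4l2, a paralog that is induced by HIF-1 in other cells (ENSMUSG00000040280, chromosome 10, 127514967 to 127517154, plus strand), had 1.82, 1.50 and 1.09 FPKM with 1 nM and 3.74, 3.68 and 3.75 FPKM with 10 nM oligomycin, 0.308, 0.549 and 0.488 FPKM with 5 mM and 0.356, 0.617 and 0.703 FPKM with 10 mM 2-DG, against 1.53, 1.74 and 1.47 FPKM in the controls. All 10 nM samples were above, all 2-DG samples below, and the 1 nM samples within or around the controls. The changes were 0.87 ± 0.11 with 10 nM oligomycin (adjusted p = 6.4e-06, limma), a level 2.36 times that of the controls, -0.83 ± 0.11 with 5 mM 2-DG (adjusted p = 7.2e-05), -0.73 ± 0.11 with 10 mM 2-DG (adjusted p = 0.00012) and -0.07 ± 0.11 with 1 nM oligomycin (adjusted p = 0.59). With a pseudocount of 0.1 in place of 1 these changes were 1.19, -1.64, -1.39 and -0.12, since the larger pseudocount understates changes at such levels. The levels are low: they stand for a mean of 76 reads per sample with 10 nM oligomycin, 9 with 5 mM 2-DG and 31 in the controls. The summed fibroblast markers were also above the controls with 10 nM oligomycin. They were above them too with 1 nM, where Ndufa4l2 did not pass, and with 10 mM 2-DG, where Ndufa4l2 fell. The summed macrophage markers were below the controls with both 2-DG doses and above them with 10 nM oligomycin. The part of these markers in the result on Ndufa4l2 was not tested. Ndufa4 itself, a far more abundant transcript, was at 60.3 FPKM with 1 nM and 63.4 FPKM with 10 nM oligomycin, 76.4 FPKM with 5 mM and 70.3 FPKM with 10 mM 2-DG, and 76.9 FPKM in the controls. Over all samples it fell with both oligomycin doses, with changes of -0.34 ± 0.11 (adjusted p = 0.015) and -0.29 ± 0.11 (adjusted p = 0.026). The change with 10 nM was -0.12 without replicate 1 (adjusted p = 0.10), and the call was lost in 6 of 15 alternatives, among them those without control replicate 2 or 3, without a filter and with median ratio scaling. That with 1 nM was lost without control replicate 3 (adjusted p = 0.053).

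Between the oligomycin doses, 4 Nduf genes were higher and 4 lower with 10 nM than with 1 nM, against 18.7% higher and 27.6% lower among all genes. Without 10 nM replicate 1 the counts were 23 higher and 3 lower, against 21.8% and 28.4%. The number of rises was also 2 without 1 nM replicate 2, 10 nM replicate 2 or 10 nM replicate 3, and the number of falls 7 without 10 nM replicate 2. With the exon length correction 10 were higher and 6 lower, against 25.5% and 25.3% of all genes. With and without 10 nM replicate 1, Ndufa3, Ndufa4l2, Ndufa5 and Ndufv3 were higher and Ndufaf6, Ndufaf7 and Ndufs1 lower with 10 nM. The call of Ndufa3 was lost in 7 of 15 alternatives (adjusted p up to 0.18, limma) and that of Ndufa5 in 4 of 15 (up to 0.069). Both were lost without 1 nM replicate 2, 10 nM replicate 2 or 10 nM replicate 3, and Ndufa3 also without either other 1 nM sample. Ndufv3, a peripheral arm subunit, had 16.1, 22.6 and 22.1 FPKM with 10 nM against 14.3, 14.3 and 14.1 FPKM with 1 nM, groups that did not overlap (0.46 ± 0.11, adjusted p = 0.0036, limma, or 0.61 without replicate 1). Core subunits differed by -0.22 ± 0.06 for Ndufs1, 0.08 ± 0.10 for Ndufs3, 0.21 ± 0.14 for Ndufs7, 0.05 ± 0.11 for Ndufs8, -0.20 ± 0.08 for Ndufv1 and -0.20 ± 0.11 for Ndufv2. The assembly factors differed by -0.14 ± 0.11 for Ndufaf1, -0.05 ± 0.13 for Ndufaf2, 0.08 ± 0.11 for Ndufaf3, -0.23 ± 0.08 for Ndufaf4, -0.16 ± 0.09 for Ndufaf5 and 0.05 ± 0.11 for Ndufaf8, beside Ndufaf6 and Ndufaf7 above. Of these core and assembly genes Ndufs1, Ndufaf4, Ndufaf6 and Ndufaf7 passed. The call of Ndufaf4 (adjusted p = 0.039) was lost in 11 of 15 alternatives, among them those without any 1 of the 1 nM samples, without 10 nM replicate 1 (-0.18, adjusted p = 0.12) or replicate 2, with the replicate block, with either other scaling and with the exon length correction. That of Ndufs1 was lost with the exon length correction (-0.15, adjusted p = 0.065), and was kept at -0.22 without 10 nM replicate 1. Ndufs3 (0.20), Ndufs7 (0.42) and Ndufa4 (0.22) passed as higher without replicate 1. Ndufa4 differed by 0.05 ± 0.11 and Ndufa4l2 by 0.95 ± 0.11, the same without replicate 1. The changes of the 45 genes between the doses had a Spearman correlation of -0.40 with exon length, a description over genes that share libraries.

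With 2-DG few Nduf genes passed the test. At 5 mM, 1 rose and 1 fell of the 45, against 15% higher and 20.3% lower among all genes tested, and at 10 mM, 1 rose and 7 fell, against 21.4% higher and 26.8% lower. These comparisons share their 3 controls with each other and with those of oligomycin. In limma's unadjusted test, 5 of the 45 genes at 5 mM and 12 at 10 mM had p under 0.05. Among the 7 core subunits 0 passed after adjustment at either dose. At 5 mM and 10 mM the changes were -0.01 ± 0.06 and -0.07 ± 0.06 for Ndufs1, -0.12 ± 0.10 and -0.18 ± 0.10 for Ndufs3, and -0.03 ± 0.14 and -0.12 ± 0.14 for Ndufs7. They were 0.05 ± 0.11 and -0.04 ± 0.11 for Ndufs8, 0.08 ± 0.08 and -0.05 ± 0.08 for Ndufv1, and -0.13 ± 0.11 and -0.22 ± 0.11 for Ndufv2. Of the 8 assembly factors, 4 fell and 1 rose at 10 mM, and 2 fell and 1 rose with the exon length correction.

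Ndufaf5, a hydroxylase of the core subunit Ndufs7, was the only Nduf gene that rose with 2-DG in the fit over all samples. With the exon length correction 5 rose and 1 fell at 5 mM, against 20% higher and 19.1% lower among all genes, and 4 rose and 6 fell at 10 mM, against 25.2% and 25.6%. Ndufaf5 had 9.14, 8.68 and 8.48 FPKM with 5 mM and 10.3, 8.42 and 8.03 FPKM with 10 mM, against 6.33, 7.72 and 7.34 FPKM in the controls. All 6 samples with 2-DG were above the controls, by 0.27 ± 0.09 (adjusted p = 0.04, limma) and 0.28 ± 0.09 (adjusted p = 0.024). The call at 5 mM was lost when control replicate 1 or 3 or any of the 5 mM samples was left out, and the call at 10 mM without control replicate 1 or 10 mM replicate 1, each leaving 0 rises. Ndufaf3 had 4.48, 4.15 and 4.33 FPKM with 10 mM, against 5.79, 6.29 and 6.19 FPKM in the controls. These groups did not overlap (-0.41 ± 0.11, adjusted p = 0.0067), and with 5 mM, at 5.14, 6.66 and 5.39 FPKM, the change was -0.08 ± 0.11.

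Ndufb4, a membrane arm subunit, had 17.8, 21.9 and 19.1 FPKM with 10 mM 2-DG, against 24.9, 25.3 and 30.0 FPKM in the controls. All samples with 10 mM were below the controls (-0.43 ± 0.13, adjusted p = 0.015, limma), the call was lost without control replicate 3 or 10 mM replicate 1 (adjusted p up to 0.067), and reads may be shared with the near-identical Ndufb4c. The other falls at 10 mM were in Ndufaf7 (-0.27 ± 0.07, adjusted p = 0.0075), Ndufv3 (-0.33 ± 0.11, adjusted p = 0.023), Ndufaf6 (-0.30 ± 0.11, adjusted p = 0.036) and Ndufaf8 (-0.29 ± 0.11, adjusted p = 0.044), beside Ndufa4l2. The calls of Ndufaf6 and Ndufaf8 were lost in 7 and 9 of 14 alternatives, with adjusted p up to 0.13 and 0.18, each without control replicate 2 or 3, without 10 mM replicate 2 or 3 and with the exon length correction, and Ndufaf8 also without 10 mM replicate 1. That of Ndufv3 was lost without control replicate 2 or 3 or 10 mM replicate 1 or 3. The number of falls was 4 without control replicate 2, 10 mM replicate 1 or 10 mM replicate 3, and 3 without control replicate 3. The remaining assembly factors did not pass at either dose, with changes of 0.01 ± 0.11 and -0.05 ± 0.11 for Ndufaf1, -0.12 ± 0.13 and -0.20 ± 0.13 for Ndufaf2, and the values given above for Ndufaf4. At 5 mM, Ndufaf6, Ndufaf7 and Ndufaf8 had -0.12 ± 0.11, -0.15 ± 0.07 and -0.21 ± 0.11.

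Between 10 mM and 5 mM 2-DG, limma called 0 Nduf genes in either direction, against 3.41% higher and 2.45% lower among all genes. Only 1 of the 45 had an unadjusted p under 0.05, and the lowest adjusted p was 0.093, of Ndufaf3 at -0.33 ± 0.11. The changes ran from -0.33 to 0.11. They were -0.06 ± 0.06 for Ndufs1, -0.05 ± 0.10 for Ndufs3, -0.09 ± 0.14 for Ndufs7, -0.10 ± 0.11 for Ndufs8, -0.12 ± 0.08 for Ndufv1 and -0.09 ± 0.11 for Ndufv2 in the core. Among the other assembly factors they were -0.06 ± 0.11 for Ndufaf1, -0.07 ± 0.13 for Ndufaf2, 0.07 ± 0.08 for Ndufaf4, 0.02 ± 0.09 for Ndufaf5, -0.17 ± 0.11 for Ndufaf6, -0.12 ± 0.07 for Ndufaf7 and -0.09 ± 0.11 for Ndufaf8. Ndufa4 had -0.12 ± 0.11 and Ndufa4l2 0.10 ± 0.11.

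**Figure D4:**
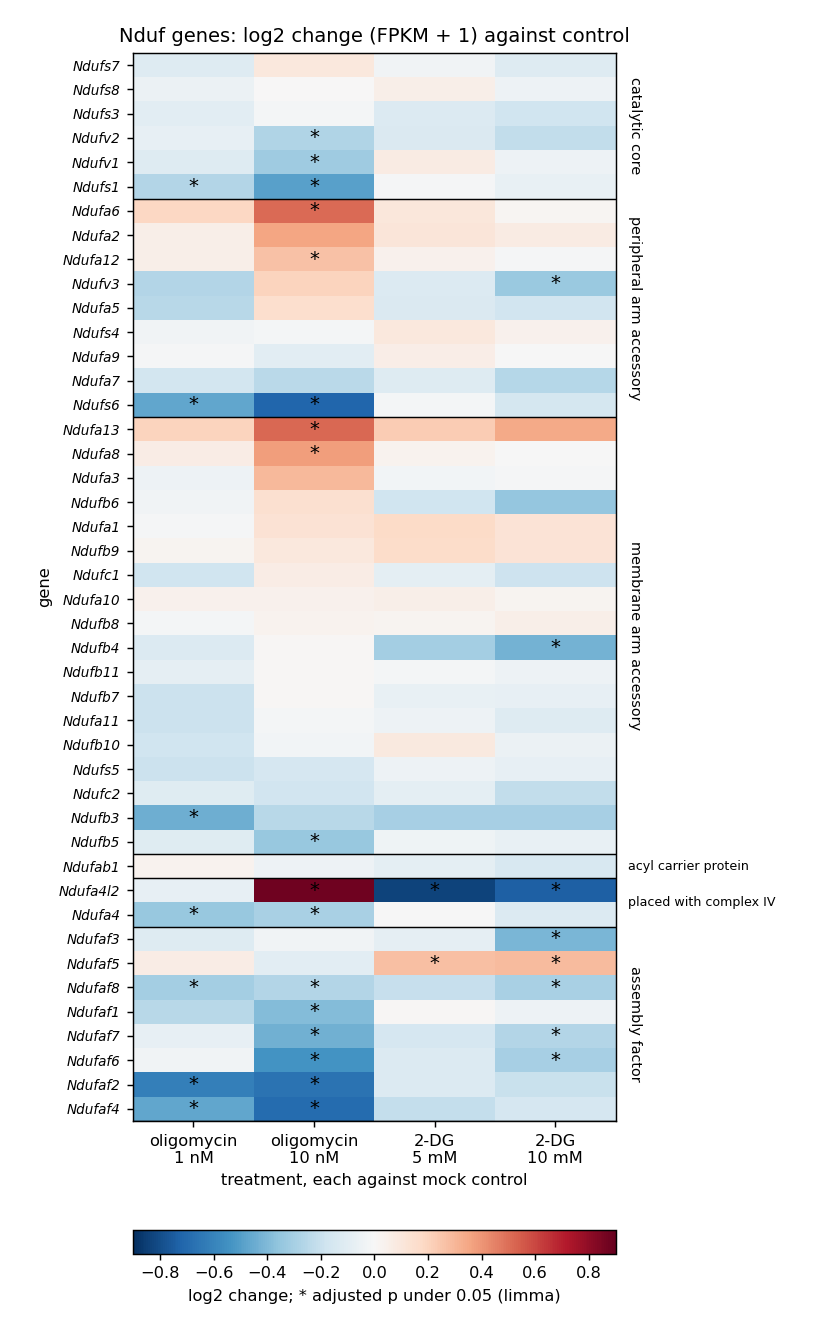
Log2 change of 44 of the 45 tested Nduf genes (rows, by class and within a class by the change with 10 nM oligomycin) in each treatment against mock control (columns), from limma on log2(FPKM + 1) over 15 samples, with an asterisk where the adjusted p was under 0.05. The assembly factors are lower in 6 of 8 with 10 nM oligomycin, the accessory subunits are mixed, and with 5 mM 2-DG 2 cells are marked, Ndufaf5 and Ndufa4l2.

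The high doses of the inhibitors were compared directly, although doses of different compounds are not matched. With 10 mM 2-DG, 10 Nduf genes were higher and 10 lower than with 10 nM oligomycin, against 37.7% higher and 33.2% lower among all genes, and without 10 nM replicate 1, 6 were higher and 21 lower, against 37.3% and 34.4%. The number lower was 5 without 10 nM replicate 2, 10 nM replicate 3 or 10 mM replicate 3, and 6 without 10 mM replicate 1. Higher with 2-DG in both fits were Ndufaf2, Ndufaf4, Ndufaf5, Ndufs1, Ndufs6 and Ndufv1, led by Ndufs6 (0.55 ± 0.12, adjusted p = 0.00095, limma) and Ndufaf4 (0.55 ± 0.08, adjusted p = 4.6e-05), at 0.40 and 0.49 without 10 nM replicate 1. Lower in both fits were Ndufaf3, Ndufa4l2 and the accessory subunits Ndufa3, Ndufa5, Ndufa6, Ndufa8, Ndufa12, Ndufb4, Ndufb6 and Ndufv3. Of these accessory subunits, Ndufb4, Ndufb6 and Ndufv3 kept their calls under every alternative. The others lost theirs without 10 nM replicate 2, 10 nM replicate 3 or 10 mM replicate 3. Among the 8 assembly factors 5 were higher and 1, Ndufaf3, was lower (-0.38 ± 0.11, adjusted p = 0.0066, or -0.51 without 10 nM replicate 1). Without that library 3 of the 8 were higher and 1 lower, a share of rises near the 37.3% among all genes. The other assembly factors had differences of 0.34 ± 0.11 for Ndufaf1, 0.47 ± 0.13 for Ndufaf2, 0.38 ± 0.09 for Ndufaf5, 0.24 ± 0.11 for Ndufaf6, 0.17 ± 0.07 for Ndufaf7 and -0.03 ± 0.11 for Ndufaf8. Of the assembly factors Ndufaf6 and Ndufaf8 did not pass. Core subunits had 0.42 ± 0.06 for Ndufs1, -0.16 ± 0.10 for Ndufs3, -0.21 ± 0.14 for Ndufs7, -0.05 ± 0.11 for Ndufs8, 0.27 ± 0.08 for Ndufv1 and 0.06 ± 0.11 for Ndufv2, and Ndufa4 had 0.17 ± 0.11, of which Ndufs1 and Ndufv1 passed. Without 10 nM replicate 1 the differences were 0.21 for Ndufaf1 and 0.10 for Ndufaf7, which no longer passed, 0.28 for Ndufaf2, 0.29 for Ndufaf5, 0.42 for Ndufs1 and 0.18 for Ndufv1, which passed, and -0.28 for Ndufs3 and -0.43 for Ndufs7, which then passed as lower. The call of Ndufaf1 was also lost without 10 mM replicate 2, and that of Ndufaf7 without 10 nM replicate 2 or any 1 of the 10 mM samples. The largest difference was that of Ndufa4l2, -1.61 ± 0.11 (adjusted p = 1.5e-08), or -2.58 with a pseudocount of 0.1, with 0.559 ± 0.181 FPKM with 10 mM 2-DG and 3.72 ± 0.0386 FPKM with 10 nM oligomycin (SD, n = 3 each).

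Assembly factors without the Nduf name were mostly lower with 10 nM oligomycin and with 10 mM 2-DG. Of 10 such genes listed, 9 were in the table and tested. With 1 nM oligomycin 5 fell and 2 rose, with 10 nM 7 fell and 2 rose (the same counts without replicate 1), with 5 mM 2-DG 3 fell, and with 10 mM 7 fell. Among all genes 33.2%, 41.7%, 20.3% and 26.8% were lower in these 4 comparisons. With 10 nM oligomycin the largest falls were Dmac1, a factor of the distal membrane arm that the table lists as Tmem261 (-0.72 ± 0.11, adjusted p = 5e-05, limma), Tmem186 (-0.62 ± 0.09, adjusted p = 2.5e-05) and Ecsit (-0.51 ± 0.10, adjusted p = 0.00023), the last 2 of the same assembly complex as Ndufaf1. Timmdc1 and Tmem70, both membrane proteins that act in assembly, rose with oligomycin and fell with 2-DG. Tmem70 changed by 0.35 ± 0.10 with 10 nM oligomycin (adjusted p = 0.005) and by -0.54 ± 0.10 with 10 mM 2-DG (adjusted p = 0.00041), and Timmdc1 by 0.25 ± 0.08 (adjusted p = 0.0076) and -0.38 ± 0.08 (adjusted p = 0.001).

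The mitochondrial genome encodes 7 further core subunits of the membrane arm, and these moved both ways. With 10 nM oligomycin mt-Nd1, at the ubiquinone site, changed by -1.19 ± 0.08 (adjusted p = 4e-09, limma), mt-Nd3 by -0.73 ± 0.19 and mt-Nd2 by -0.51 ± 0.15, while mt-Nd4, a proton-pumping subunit, changed by 0.56 ± 0.11 (adjusted p = 0.00034), mt-Nd6 by 0.51 ± 0.11 and mt-Nd5 by 0.45 ± 0.12. With 1 nM oligomycin mt-Nd1 (-0.70 ± 0.08) and mt-Nd4l (-0.61 ± 0.22) fell and mt-Nd6 rose. The levels of mt-Nd4l and mt-Nd3 were low, at 4.07 and 10.5 FPKM in the controls, where the others had 315 to 2309 FPKM. With 1 nM mt-Nd4l was at 2.46 ± 1.18 FPKM (SD). With 2-DG mt-Nd5 and mt-Nd6 rose at both doses, by 0.31 to 0.34, and mt-Nd1 fell at 10 mM (-0.30 ± 0.08). The counts with 10 nM, 3 higher and 3 lower of 7, were the same without replicate 1, where 34% and 41.7% of all genes were higher and lower over all samples. mt-Nd6 is encoded on the other strand from the rest, and without strand its reads and those of overlapping transcripts cannot be told apart.

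Transcription regulators of respiratory genes were lower with oligomycin in 6 of the 8 tested of 9 listed, at each dose, with and without replicate 1 at 10 nM. Among all genes 33.2% were lower with 1 nM and 41.7% with 10 nM (41% without replicate 1). Tfam, which activates and packages mitochondrial DNA, changed by -0.64 ± 0.07 with 1 nM and -1.10 ± 0.07 with 10 nM (adjusted p = 2.2e-09, limma), the PGC-1 family coactivator Pprc1 by -0.59 ± 0.06 and -1.06 ± 0.06, Hcfc1 by -0.62 ± 0.11 and -0.93 ± 0.11 and Gabpa, an ETS factor, by -0.40 ± 0.07 and -0.80 ± 0.07. Nrf1 (-0.39 ± 0.06 and -0.62 ± 0.06) and Yy1 (-0.38 ± 0.06 and -0.40 ± 0.06) also fell at both doses. The nuclear receptor Esrra rose with 10 nM (0.60 ± 0.12, adjusted p = 0.0005), and Ppargc1b rose with 1 nM (0.21 ± 0.09). With 2-DG 1 of the 8, Ppargc1b, fell at each dose, with changes of -0.45 ± 0.09 and -0.47 ± 0.09. Any link between these factors and the Nduf genes was not tested.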

How the data were processed

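RNA of 15 samples of mouse ESCs, 5 groups of 3, was analysed from the table of FPKM values deposited by the authors, 1 value per gene and sample. Per the submitters' processing notes, HISAT2 2.1.0, Bowtie2 2.2.3, HTSeq 0.6.0 and the build GRCm38 were used, with no role given for each tool and no word on strand. 1 line without a gene was left out. Depth (17.4 to 19.2 M reads; M, mega) was worked out from the steps of the FPKM values. Of the values up to 20 reads, 95.4% to 96.1% came within 0.05 of whole reads, using exon lengths of GENCODE M21. FPKM divides by length, and intervals from depth would cover counting error only.

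The 13284 genes that reached 1 FPKM in 3 or more samples were analysed as log2(FPKM + 1), which understates changes of low genes, with limma 3.58.1 in R 4.3.3 (1 mean per group, all 15 samples, eBayes with a trend), two-sided, with Benjamini-Hochberg adjustment over all genes in each of 7 comparisons and a threshold of 0.05. The fit was tested on simulated data. Alternatives were a pseudocount of 0.1, no filter, a filter of 5 FPKM, median ratio scaling, quantile normalization, a correction for exon length (lowess), a replicate block, only the groups compared, and leaving out each library. The exon length correction without 10 nM replicate 1 was added after the data had been seen. Near copies were found with BLAST 2.17.0 between transcripts (at least 95% identity over 80% of the shorter one and 200 bases). Motifs, tables and figures used Python 3.11.15, pandas 2.3.3, numpy 2.4.6 and matplotlib 3.10.9.

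The values of 1 core subunit are not reported here and are left out of the plots of single genes, while counts and sums include it. Values in every comparison are given for the other core subunits, assembly factors, Ndufa4 and Ndufa4l2, and per sample for the 3 largest rises and 3 largest falls past the threshold in each comparison with control; Ndufs1, Ndufaf6, Ndufaf7 and Ndufv3 were shown per sample, and Ndufa8, Ndufa12 and Ndufa2 named, after their values were seen. The Nduf genes, the other lists and the tests were chosen with earlier results of these data known. Replicate numbers were not treated as pairs in the main fit. Correlations of same-numbered deviations ran from -0.24 to 0.37, and no pair of groups had all of them above 0.1. For control and 10 nM oligomycin they were 0.37, 0.02 and 0.23, so whether the numbers pair the samples is not settled.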

Additional observations from a re-analysis of the deposited data

Results flagged for a closer look

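Ndufa4l2 is marked for a closer look because its response differed between the inhibitors in a direct test. Its level was 0.559 ± 0.181 FPKM with 10 mM 2-DG and 3.72 ± 0.0386 FPKM with 10 nM oligomycin (SD, n = 3 each), a difference of -1.61 on the log2 scale (adjusted p = 1.5e-08, limma), and every sample with 2-DG lay below every sample with 10 nM oligomycin. Without 10 nM replicate 1 the difference was -1.60, and with a pseudocount of 0.1 in place of 1 it was -2.58. The doses are of different compounds and are not matched, and the value with 2-DG rests on a mean of 11.3 reads per sample.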

How the results depend on the processing

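Counts are Nduf genes called of 45. For most of these settings, and for most fits with a library left out, the share of all genes called is not given. There a shift of the Nduf genes cannot be told apart from a shift of all genes. Without a filter, rises were 3 with 10 nM oligomycin, 0 with 5 mM and 0 with 10 mM 2-DG, and falls 4 with 10 mM 2-DG and 6 between the high doses (2-DG against oligomycin). Requiring 5 FPKM left 0 falls with 5 mM 2-DG, since Ndufa4l2 was no longer tested. Median ratio scaling gave 8 rises with 10 nM oligomycin and 2 with 10 mM 2-DG, and quantile normalization 1 rise with 1 nM, 9 with 10 nM and 2 with 10 mM 2-DG. The exon length correction gave 1 rise with 1 nM, 12 with 10 nM, 5 with 5 mM and 4 with 10 mM 2-DG, 10 from 1 nM to 10 nM oligomycin, and 1 fall from 5 mM to 10 mM 2-DG. With the same correction and without 10 nM replicate 1, rises were 19 against control and 20 against 1 nM, and falls of 2-DG against oligomycin 21. Here Ndufa11 reversed to 0.16 with 10 nM against control, where the fit over all samples gave -0.02. Fits of only the groups compared gave falls of 11 (1 nM), 4 (5 mM) and 11 (10 mM), rises of 2 (10 nM), 2 (10 mM) and 2 (10 nM against 1 nM), and 6 higher and 6 lower between the high doses. The cause of these shifts was not tested.

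With one library left out, rises ranged from 2 to 16 and falls from 9 to 16 with 10 nM oligomycin, rises from 0 to 1 and falls from 1 to 2 with 5 mM 2-DG (2 falls without control replicate 1 or 5 mM replicate 1), and rises from 0 to 2 and falls from 3 to 7 with 10 mM (2 rises without control replicate 3). They ranged from 2 to 23 and from 3 to 7 between the oligomycin doses, and from 6 to 10 and from 5 to 21 between the high doses. With 1 nM oligomycin there were 0 rises and 5 to 8 falls. Where a group is left with 2 samples, they share the spread estimated over all groups.

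Whether the replicate numbers pair the samples is not settled. A fit with the replicate block gave 7 rises and 12 falls with 10 nM oligomycin, 8 falls with 1 nM, 0 rises with 5 mM and 1 rise with 10 mM 2-DG. Calls kept under every alternative run were 5 of 7 with 1 nM oligomycin, 10 of 17 with 10 nM (Ndufa13, Ndufa4l2, Ndufaf1, Ndufaf2, Ndufaf4, Ndufaf6, Ndufaf7, Ndufs1, Ndufs6 and Ndufv1), 1 of 2 with 5 mM 2-DG (Ndufa4l2), 3 of 8 with 10 mM (Ndufa4l2, Ndufaf3 and Ndufaf7), 4 of 8 between the oligomycin doses and 11 of 20 between the high doses. Ndufb2 and Ndufa4l2 had the fewest reads, at means of 20 and 31 per control sample.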
